A study of Mus musculus with 3 samples.

Results

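A set of 54 genes that act in G2 and mitosis was followed in single-cell RNA sequencing of mouse forelimb buds at embryonic day 9.5. The genes are a listed set of symbols, all 54 were present in the matrices of the 3 libraries, and they are 54 of the 31054 features counted. By role, 13 act on chromatin and chromosome structure, 10 in the CDK1 switch and mitotic exit, 10 at the kinetochore, in the spindle checkpoint and in the chromosomal passenger complex, 15 at the spindle and centrosome and 4 in cytokinesis, and 2 are other mitotic proteins. The control library came from Esco2fl/fl embryos, and the 2 mutant libraries came from Esco2fl/fl;Prrx1-CreTg/0 embryos. Both genotypes are homozygous for the floxed allele of Esco2, a cohesin acetyltransferase that sister chromatid cohesion needs, and the Prrx1 promoter drives Cre in limb bud mesenchyme. Per the labels, each library joined 3 pooled samples of 2 limb buds, 6 limb buds in all. No label ties the pools to different litters, and with 1 control against 2 mutants a p-value reflects the spread of these libraries alone.

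Cells commit to mitosis when cyclin B and its kinase CDK1 are switched on, and they leave it when the anaphase-promoting complex marks cyclin B and securin for destruction. The transcripts of these genes accumulate through G2 and fall after division. Their promoters are known for CCAAT boxes, bound by NF-Y, and for the cell cycle homology element TTTGAA or TTCGAA, bound by complexes of the MuvB core. Cdkn1a encodes p21, an inhibitor of cyclin-dependent kinases that p53 induces, and p21 is known to turn MuvB complexes towards repression of G2 and mitosis genes. Psrc1, which encodes a microtubule regulator of chromosome congression, and Gtse1, which encodes a microtubule-binding protein of G2 and S phase, are known as genes that p53 induces as well.

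The promoters of 6 members on which the results turn are shown first, the 3 called higher under every setting and, of those called lower with a RefSeq promoter, the 3 with the largest folds, in mutant mesenchyme cells with a Cdkn1a transcript. Each is the 150 bases before a transcription start in RefSeq (GRCm38.p6), written 5′ to 3′ on the strand of the gene. They lie at chr3:108383688-108383837 (+ strand) for Psrc1, chr15:85859557-85859706 (+) for Gtse1, chr8:22185820-22185969 (-) for Ckap2, chr2:164769779-164769928 (+) for Ube2c, chr1:189688087-189688236 (-) for Cenpf and chr1:191821323-191821472 (+) for Nek2. RefSeq lists 2 starts each for Psrc1 and Gtse1, and for Gtse1 the window with a motif is shown, for Psrc1 that with the more motifs. Capitals mark CCAAT boxes and the element TTTGAA or its variant TTCGAA, each on either strand.
Psrc1: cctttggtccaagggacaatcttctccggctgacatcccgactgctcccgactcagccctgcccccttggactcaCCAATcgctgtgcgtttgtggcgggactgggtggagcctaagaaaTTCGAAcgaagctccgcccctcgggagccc
Gtse1: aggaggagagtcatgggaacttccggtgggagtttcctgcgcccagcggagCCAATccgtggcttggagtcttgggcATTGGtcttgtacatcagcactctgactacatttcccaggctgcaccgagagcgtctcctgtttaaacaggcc
Ckap2: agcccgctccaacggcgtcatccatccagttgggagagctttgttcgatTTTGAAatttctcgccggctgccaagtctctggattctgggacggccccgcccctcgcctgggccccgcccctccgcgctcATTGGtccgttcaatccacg
Ube2c: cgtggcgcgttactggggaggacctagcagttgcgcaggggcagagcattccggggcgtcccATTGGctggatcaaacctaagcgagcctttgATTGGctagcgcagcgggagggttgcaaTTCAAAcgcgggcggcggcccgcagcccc
Cenpf: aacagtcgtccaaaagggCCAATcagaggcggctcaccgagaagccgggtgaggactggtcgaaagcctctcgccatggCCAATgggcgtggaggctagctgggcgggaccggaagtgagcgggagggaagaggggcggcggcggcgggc
Nek2: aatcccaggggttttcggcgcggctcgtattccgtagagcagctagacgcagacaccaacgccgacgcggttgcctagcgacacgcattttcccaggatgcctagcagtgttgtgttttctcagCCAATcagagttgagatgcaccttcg

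Over 250 bases before the start, 47 members had a RefSeq promoter, and Smc4, Cdca2, Cdc25c, Aurkb, Tpx2, Dlgap5 and Pimreg did not. CCAAT, searched on both strands, was found before 36 of the 47 members (76.6%), against 37.5% of 27025 genes with a promoter. TTTGAA or TTCGAA, which can share an end base with CCAAT and were also searched on both strands, stood before 22 members (46.8%), against 19.6% of all genes. A p53 element, a pair of decamers with at most 2 mismatches to the p53 consensus and a spacer of up to 13 bases, was found before 3 members (6.38%), Ckap2, Kif23 and Birc5, against 9.72% of all genes. In the windows searched, Psrc1 and Gtse1 held no such element. Of the members called higher with Cdkn1a below, TTTGAA or TTCGAA stood before 3 of 4, and of those called lower with a promoter before 2 of 12. These matches describe letters and not bound sites.

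The libraries held 6527 barcodes in the control, 7219 in mutant 1 and 8755 in mutant 2, with 178159788 to 225032823 transcript counts (unique molecular identifiers, UMIs). After filters on genes, mitochondrial share and doublets, 4048, 3590 and 4684 cells were kept, and cells of at least 10000 UMIs were given a class where at least 4 of its 10 marker genes had a UMI and no other class had more than 2. Limb mesenchyme held 779, 997 and 1843 cells in the order control, mutant 1 and mutant 2, surface ectoderm 257, 331 and 255, endothelium 477, 376 and 414, and primitive erythroid cells 394, 596 and 443. The labels call the cells mesenchymal, so the other 3 classes lie outside that label. A further 403, 389 and 588 cells met no class. Esco2 stood at 31.7, 22.9 and 21.5 CPM (a gene's UMIs scaled to the total of the class) in mesenchyme and between 24.4 and 35.5 CPM in the other classes, and 3′ reads are no measure of the deleted part. The Cre transgene had 0, 60 and 123 UMIs in mesenchyme, and no other class of a library held more than 1. The libraries shared 18 or 19 cell barcodes in pairs.

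In limb mesenchyme the 54 genes together stood at a similar level in control and mutants. Each cell was thinned to 10000 UMIs, so that depth was equal, and the UMIs of the 54 genes were summed. The mean sum was 88.9 (SD 28.0 over cells) in the control, 85.1 (SD 26.6) in mutant 1 and 94.9 (SD 26.4) in mutant 2, so the mutants lay on either side of the control. The medians over cells were 86, 83 and 93, and a median of 31, 33 and 34 of the 54 genes had a UMI in a cell. A few genes weigh heavily in this sum. Without the 5 members with the most UMIs (Hmgb2, Top2a, Cbx5, Tubb4b and Cks2), the thinned sums were 5820, 6065 and 6398 CPM. Both mutants then lay above the control, which was not tested. With all members they were 8889, 8514 and 9492 CPM.

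The same sum in the other classes is a reference, since Prrx1-Cre is not known to act there. In surface ectoderm the mean was 79.2 in the control, 84.5 in mutant 1 and 73.1 in mutant 2, again on either side. In endothelium it was 83.7, 92.1 and 93.1, with both mutants above the control. In primitive erythroid cells it was 55.8, 52.0 and 53.1, with both mutants below. Over all UMIs of a class without thinning, the log2 ratio of mutants to control was 0.08 (SD 0.07, n = 2 mutants) in mesenchyme, 0.01 (SD 0.14) in ectoderm, 0.14 (SD 0.006) in endothelium and -0.12 (SD 0.01) in erythroid cells. With 1 control library no exact permutation test can go below 0.333, so these sums carry no test.

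**Figure D1:**
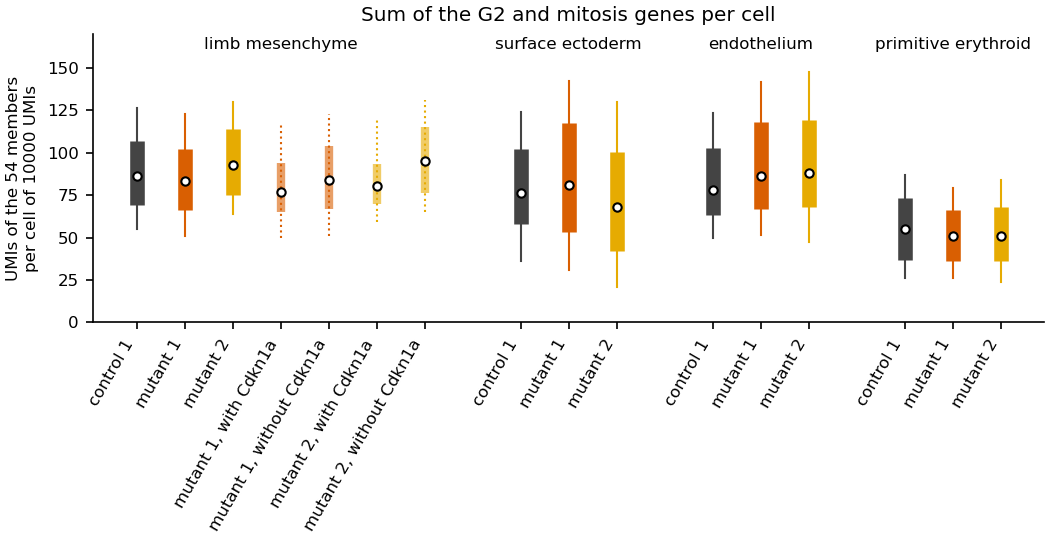
UMIs of the 54 genes per cell of 10000 UMIs (y axis, linear) in each class and library; circles are medians over cells, boxes the 25th to 75th percentile and lines the 10th to 90th. In mesenchyme the medians are 86, 83 and 93, and in both mutants the cells with a Cdkn1a UMI sit below those without.

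Gene by gene, no member passed the test between mutant and control mesenchyme. For each library the UMIs of a class were added up, and a gene was called at an adjusted p under 0.05 in edgeR's quasi-likelihood test over all genes tested. Of 54 members, 0 were called higher and 0 lower, against 0.831% and 0.534% of the 10103 genes tested. At an unadjusted p under 0.05 there were 2, Psrc1 and Gtse1, both with positive folds, and DESeq2 called 0. The log2 folds ran from -0.24 to 0.89 with a median of 0.07, and 36 of 54 were positive, while the median over all genes was -0.01 and 48.5% were positive. Thinned to equal depth, 26 of 54 were positive with a median of -0.01, against 50.0% of all genes, so the larger share of positive folds was not present there. Both mutants lay above the control for 28 members and below for 5, against 27.5% and 26.9% of all genes tested, and for the other 21 the mutants lay on either side.

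Psrc1 had the highest fold of the members. It stood at 28.6 CPM in control mesenchyme, 51.2 CPM in mutant 1 and 54.6 CPM in mutant 2, so both mutants lay above the control, by 0.89 on the log2 scale (SE 0.30, edgeR adjusted p = 0.170). With the mitochondrial share held under 5% its fold was 0.88 and the adjusted p 0.0309, the lowest of its alternatives. Gtse1 stood at 16.3, 23.8 and 26.7 CPM, 0.63 higher on the log2 scale (SE 0.27, adjusted p = 0.576). When the cells with a Cdkn1a UMI were left out of all 3 libraries, the fold of Psrc1 was 0.40 and that of Gtse1 0.19. Thinned to equal depth, the fold of Psrc1 was 0.86, and it was not called there or with DESeq2. Nor was it called when the spread that edgeR shares between genes was held to a prior of 4 degrees of freedom.

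Next came Gas2l3, a crosslinker of actin and microtubules, at 9.27, 14.3 and 10.2 CPM (log2 fold 0.40, SE 0.28). Cenpf, a large kinetochore protein of late G2, stood at 230, 297 and 304 CPM (0.39, SE 0.37), and Cenpe, the kinetochore motor, at 155, 193 and 207 CPM (0.37, SE 0.36). In these 3 genes both mutants lay above the control, by little more than the standard error. The lowest folds were those of Cdc20, the activator of the anaphase-promoting complex, at 118, 82.6 and 118 CPM (-0.24, SE 0.33), and Tmpo, a nuclear lamina protein, at 265, 265 and 184 CPM (-0.24, SE 0.36). In each of these a single mutant lay apart, mutant 1 for Cdc20 and mutant 2 for Tmpo. Cdk1 itself stood at 224, 168 and 221 CPM (-0.20, SE 0.35) and Aurkb, the kinase of the passenger complex, at 86.1, 69.3 and 83.7 CPM (-0.17, SE 0.32), with mutant 1 the lowest in both.

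The other representative genes of each role had folds between -0.12 and 0.22. Among chromatin genes, Top2a, the topoisomerase that unlinks sister chromatids, stood at 481, 493 and 514 CPM (log2 fold 0.06), Mki67, which coats mitotic chromosomes, at 252, 277 and 254 CPM (0.08) and Hmgb2, a DNA-bending protein, at 1716, 1370 and 1787 CPM (-0.12). In the CDK1 switch, Ccnb2, a cyclin B, stood at 67.1, 64.9 and 81.9 CPM (0.13), and Cdc25c, the phosphatase that activates CDK1, at 26.3, 29.0 and 31.4 CPM (0.20). Among spindle genes, Kif11, the motor that separates the poles, had a fold of 0.13, Tpx2, which activates Aurora A, 0.14 and Aurka, the Aurora A kinase, 0.02. Birc5, the survivin subunit of the passenger complex, had -0.02 and Ect2, the exchange factor of the cleavage furrow, 0.22. By role, the median folds were 0.15 for spindle and centrosome genes (13 of 15 positive), 0.14 for cytokinesis (4 of 4), 0.07 for chromatin (9 of 13), 0.05 for kinetochore and passenger genes (6 of 10) and -0.04 for the CDK1 switch (4 of 10). No role group held a called gene.

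For comparison, 0 of 50 other G2 and mitosis genes and 0 of 43 S phase genes were called in mesenchyme, with median folds of 0.05 and -0.07. The highest of the former was Kif18b, a depolymerase of astral microtubules, at 0.74 (adjusted p = 0.282). Of 14 p53 target genes, 13 were tested and 8 were called higher. The genotype fit has 1 residual degree of freedom, from the 2 mutants, whose spread stands in for that of the control. In mesenchyme edgeR shared that spread fully over all genes, with infinite prior degrees of freedom. An SE or p-value there is thus not set by the gene's own spread between the mutants.

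In the other classes no member was called either, and edgeR called 0% of all genes there. In surface ectoderm the median fold of 54 members was -0.00 (25 positive), and the 3 with an unadjusted p under 0.05 all had negative folds, Tubb4b at -0.46, Cks1b at -0.40 and Hmgb2 at -0.30. In endothelium both mutants lay above the control for 44 of 54 members and below for 5, against 35.6% and 35.0% of all genes tested. The median fold was 0.14, against 0.01 over all genes, and 6 members had an unadjusted p under 0.05, all with positive folds. The highest were Cenpf, at 172, 254 and 234 CPM (0.51, SE 0.10, adjusted p = 0.681), and Nusap1, a spindle assembly factor, at 76.9, 110 and 106 CPM (0.49, SE 0.11). The median depth of endothelial cells before thinning was 94508 UMIs in the control and 68314 and 54161 UMIs in the mutants, whose part in this was not tested, and thinned to equal depth the members' summed log2 ratio was 0.15. In erythroid cells 51 members were tested, the folds ran from -0.25 for Tmpo to 0.32 for Ckap2l, 0 had an unadjusted p under 0.05, and the median was -0.01. DESeq2 called 0 members in these 3 classes.

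An interaction term, with a term for each library, compared the effect of the genotype in mesenchyme with that in ectoderm. Of 54 members 0 were called, against 0.782% higher and 1.14% lower over all genes, 1 had an unadjusted p under 0.05 and DESeq2 called 0. The median difference was 0.06.

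Cells with a Cdkn1a transcript set a part of the mutant mesenchyme apart. At equal depth, a Cdkn1a UMI was found in 7 of 779 mesenchyme cells of the control (0.899%, exact 95% interval 0.362% to 1.84%), in 133 of 997 in mutant 1 (13.3%, 11.3% to 15.6%) and in 212 of 1843 in mutant 2 (11.5%, 10.1% to 13.05%). In primitive erythroid cells at the same depth the shares were 2.79%, 1.17% and 2.71%, and in surface ectoderm 28.8%, 28.7% and 32.2%. In endothelium they were 5.66%, 9.57% and 3.86%, with mutant 1 above and mutant 2 below the control. These intervals cover counting error only. The 7 control cells are too few to sum, so the comparison below is within the mutants, with each mutant library as a block. The median UMIs before thinning were 44036 with and 38831 without a Cdkn1a UMI in mutant 1, and 53379 and 55137 in mutant 2.

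The summed level of the 54 genes was lower in the cells with a Cdkn1a UMI in both mutants, a description with no test. The mean member sum was 80.5 with against 85.9 without in mutant 1 and 85.1 against 96.2 in mutant 2. Without Psrc1, Gtse1 and Ckap2 the means were 77.4 against 84.8 and 81.6 against 95.2. The sum of 50 other G2 and mitosis genes was 34.0 against 37.7 and 34.5 against 39.9. The sum of 43 S phase genes was 49.3 against 48.5 and 50.6 against 52.2, with the mutants going opposite ways.

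A lower member sum with a Cdkn1a UMI was not limited to mutant mesenchyme. In endothelium the means were 73.9 with against 84.2 without in the control, 89.7 against 92.3 in mutant 1 and 88.4 against 93.3 in mutant 2, over 16 to 36 cells with a UMI. In primitive erythroid cells they were 42.1 against 56.2, 41.0 against 52.2 and 50.1 against 53.1, over 7 to 12 such cells. In surface ectoderm they were 81.4 against 78.4, 84.4 against 84.6 and 64.5 against 77.2, so only mutant 2 stood apart. In control mesenchyme the mean went the other way, at 102.3 with against 88.8 without, over 7 cells with a UMI. These differences were not tested.

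Seen over cells, a smaller share of those with a Cdkn1a UMI stood high for the members. The 25% of a library's mesenchyme cells with the highest member sum held 16.5% of the cells with a Cdkn1a UMI in mutant 1 (exact 95% interval 10.7% to 24.0%), against 27.8% (24.8% to 30.9%) of those without. In mutant 2 these shares were 12.3% (8.17% to 17.5%) and 27.2% (25.01% to 29.4%). The 25% with the lowest sum held 29.3% with (21.8% to 37.8%) and 24.4% without (21.6% to 27.4%) in mutant 1, where the intervals overlap, and 37.3% (30.7% to 44.2%) and 23.8% (21.7% to 25.9%) in mutant 2. These intervals cover counting error over the cells of 1 library and do not compare conditions.

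Within that lower sum, 4 members rose and 14 fell by the test. The edgeR fit on sums of thinned cells called 4 of 54 higher and 14 lower with a Cdkn1a UMI, against 9.75% and 4.33% of the 10422 genes tested. The median log2 fold of the members was -0.18, against -0.02 over all genes. In both mutants 32 members had lower levels with a Cdkn1a UMI and 8 higher, against 34.9% and 30.8% of all genes, and 14 went opposite ways. The calls of lower genes rest on a spread that edgeR shares over all genes. With that sharing held to a prior of 4 degrees of freedom, or without the library block, edgeR called 3 members higher and 0 lower, and DESeq2 called 3 higher and 3 lower.

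**Figure D2:**
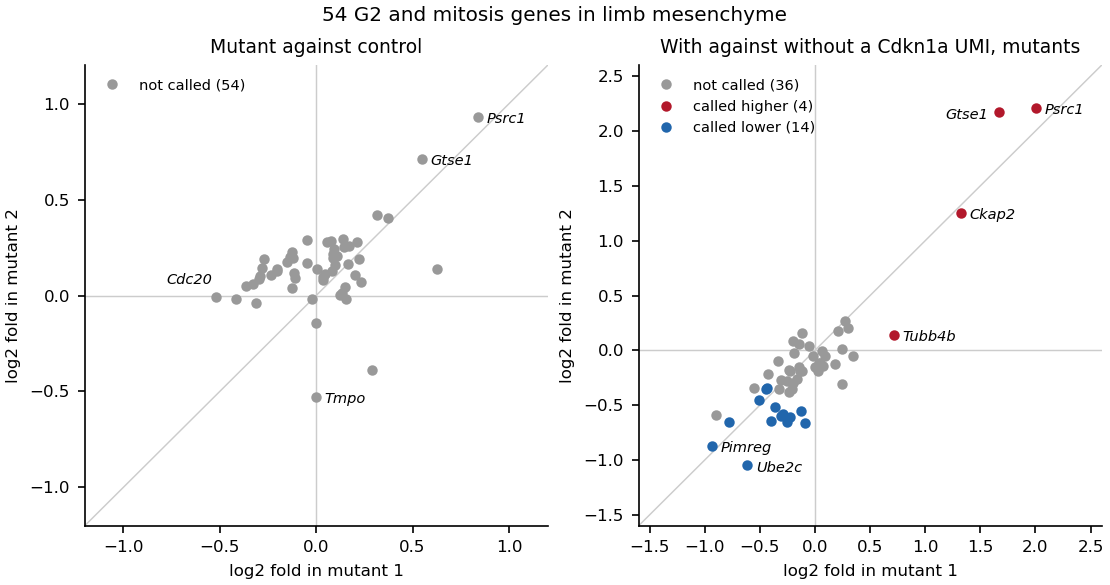
Log2 fold of each of the 54 genes in mutant 1 (x axis) against mutant 2 (y axis), for mutant over control mesenchyme (left) and for mutant mesenchyme cells with over without a Cdkn1a UMI (right); grey lines mark 0 and equality. On the right Psrc1, Gtse1 and Ckap2 stand apart in both mutants, and the 14 genes called lower lie below 0 in both.

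The 3 members that rose under every setting were Psrc1, Gtse1 and Ckap2. Levels here are CPM over thinned cells, and folds are from the edgeR fit. Psrc1 (ENSMUSG00000068744, GRCm38 chromosome 3, 108383839 to 108388231, + strand) stood at 38.5 CPM without and 147 CPM with a Cdkn1a UMI in mutant 1, and at 38.4 and 175 CPM in mutant 2. Its log2 fold was 2.13 (SE 0.12), and its adjusted p was at most 0.0041 over 12 fits. Cells of control mesenchyme without a Cdkn1a UMI held 27.3 CPM, below both levels of each mutant.

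Gtse1 (ENSMUSG00000022385, chromosome 15, 85859745 to 85876573, + strand) stood at 17.0 and 51.9 CPM in mutant 1 and at 18.6 and 83.0 CPM in mutant 2, with 16.1 CPM in control cells without Cdkn1a. Its fold was 1.99 (SE 0.16), and the adjusted p was at most 0.0096 over 12 fits. Ckap2 (ENSMUSG00000037725, chromosome 8, 22168160 to 22185819, - strand), a protein of spindle microtubules, stood at 47.7 and 114 CPM in mutant 1 and at 42.5 and 99.5 CPM in mutant 2, with 40.9 CPM in the control. Its fold was 1.29 (SE 0.13), again with an adjusted p of at most 0.0096. In all 3 genes the levels with a Cdkn1a UMI lay above every level without, and those without lay close to the control for Gtse1 and Ckap2. The 60 bases at the 3′ end of a Ckap2 transcript also occur in transcripts of 4930402H24Rik and B230398E01Rik, so its reads could be shared with those genes.

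Tubb4b, a beta tubulin, was the fourth gene called higher, at 146 and 226 CPM in mutant 1 and 228 and 246 CPM in mutant 2 (fold 0.41 on the log2 scale, SE 0.13, adjusted p 0.0217), and it was called in 6 of 12 fits. Its fold was 0.71 in mutant 1 and 0.14 in mutant 2.

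The genes that fell were led by Pimreg and Ube2c. Pimreg, a regulator of the metaphase to anaphase step, stood at 47.3 CPM without and 23.3 CPM with a Cdkn1a UMI in mutant 1, and at 60.3 and 32.1 CPM in mutant 2 (-0.90 on the log2 scale, SE 0.17, adjusted p = 4.9e-06). Ube2c, the E2 enzyme of the anaphase-promoting complex, stood at 202 and 125 CPM in mutant 1 and 307 and 145 CPM in mutant 2 (-0.85, SE 0.14, adjusted p = 4.8e-08). For both genes the summed levels with a Cdkn1a UMI lay below both levels without, and both were called in 10 of 12 fits, with the highest adjusted p at 0.155 and 0.175. Gas2l3 had a fold of -0.76 that was not called (adjusted p = 0.0994).

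Nek2, a kinase that splits centrosomes, stood at 22.1 and 12.0 CPM in mutant 1 and at 28.1 and 17.5 CPM in mutant 2 (-0.70, SE 0.22, adjusted p = 0.0155). Cenpf stood at 298 and 214 CPM and at 291 and 182 CPM (-0.53, SE 0.14, adjusted p = 0.0025), against 207 CPM in control cells without Cdkn1a. For Cenpf, then, the mutant cells without a Cdkn1a UMI lay above the control, and those with one lay near it. The other members called lower were Nuf2, of the NDC80 complex, Aurkb, Jpt1, Aurka, Kif23, the centralspindlin motor, Cks2 and Cdk1, the kinase with its small subunit, Kif20b, Anln, the anillin of the contractile ring, and Cdca3. Their folds ran from -0.48 to -0.38.

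Other representative genes had folds close to 0. Cdc20 stood at 75.2 and 78.7 CPM by the fit in mutant 1 and at 115 and 114 CPM in mutant 2 (0.02), and Cdc25c, Birc5 and Cenpe had folds of -0.00, 0.02 and 0.03. Ccnb2 had a fold of -0.15, Kif11 -0.16, Tpx2 -0.21, Mki67 -0.21, Top2a -0.28 and Hmgb2 0.13, and none was called. Ect2 had 0.27 (adjusted p = 0.148), against the direction of the other 3 cytokinesis genes. By role, 3 of 4 cytokinesis genes fell, 4 of 10 genes of the CDK1 switch fell and 1 rose, 3 of 10 kinetochore and passenger genes fell, 2 of 15 spindle genes fell and 3 rose, 2 of 2 other mitotic proteins fell, and 0 of 13 chromatin genes were called. These counts stand beside 9.75% of all genes called higher and 4.33% called lower.

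Beside the same shares of all genes stand 2 lists of cell cycle genes outside the members, whose difference was not tested. Of 50 other G2 and mitosis genes, 4 rose and 11 fell, with a median of -0.26. Kif18b had the highest fold (1.43, SE 0.14) and Fzr1, the partner of the anaphase-promoting complex in G1, the lowest (-0.93, SE 0.21). Of 43 S phase genes, 2 rose and 0 fell, with a median of 0.06. All 14 p53 target genes were higher, a list that includes Cdkn1a, which sorted the cells.

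**Figure D3:**
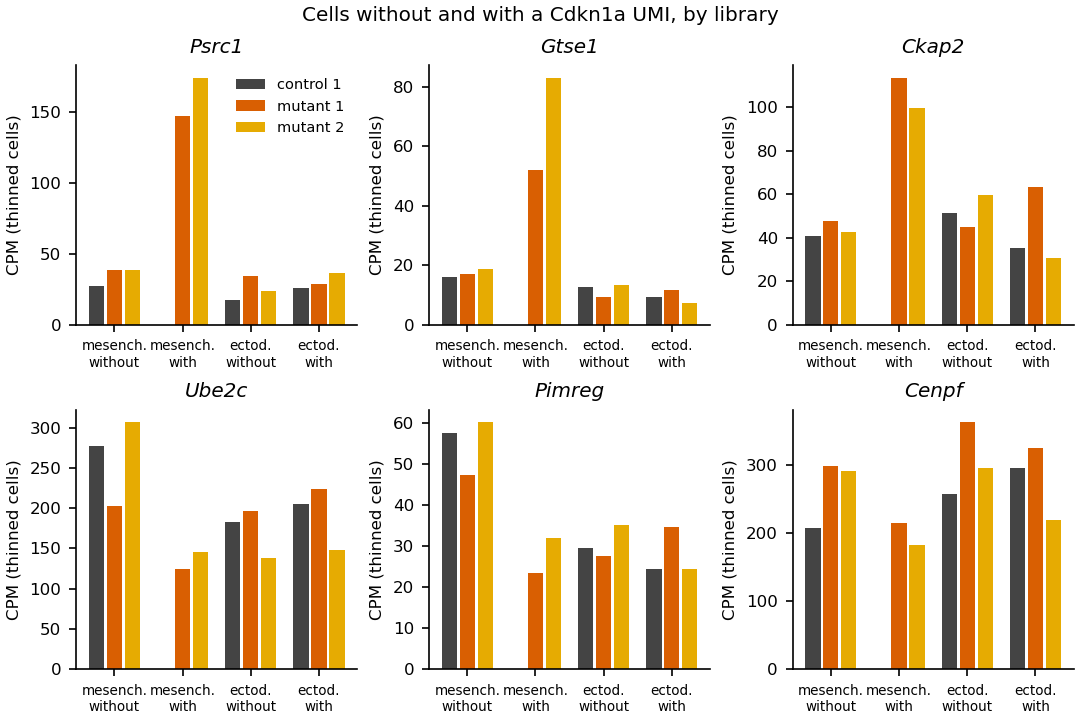
Levels of 6 members in CPM over thinned cells (y axes from 0), in mesenchyme (mesench.) and surface ectoderm (ectod.) cells without and with a Cdkn1a UMI; bars are libraries, and the 7 control mesenchyme cells with a UMI are not drawn. Psrc1, Gtse1 and Ckap2 rise in mutant mesenchyme, where Ube2c, Pimreg and Cenpf are lower, and in ectoderm the bars of the libraries overlap.

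The cells were also split by their sum of the other 53 members, and 9 of 12 members followed kept 1 direction. The 12 were picked by name, and most were already called above in these same cells. Their directions therefore describe those calls further and add no separate support. In the lower and the upper part of each mutant's cells, 4 comparisons in all, Psrc1, Gtse1, Ckap2 and Tubb4b were higher with a Cdkn1a UMI each time, and Ube2c, Cenpf, Pimreg, Nek2 and Top2a were lower each time. Aurkb, Cdk1 and Cdc25c did not keep 1 direction: Cdk1 was higher with a Cdkn1a UMI in the lower part of mutant 1, at 110 against 92.6 CPM, and lower in the other 3 comparisons. In mutant 1, Psrc1 stood at 28.4 and 125 CPM in the lower part and at 48.5 and 181 CPM in the upper part. In mutant 2 it stood at 27.4 and 160 CPM and at 48.1 and 220.0 CPM. Ube2c stood at 85.8 and 51.9 CPM in the lower part of mutant 1 and at 318 and 225 CPM in its upper part.

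Markers of the cell classes moved with the split. The 10 mesenchyme markers summed to 1684 CPM with and 2139 CPM without a Cdkn1a UMI in mutant 1, and to 1579 and 1865 CPM in mutant 2. The 10 ectoderm markers summed to 97.7 against 57.4 CPM and 99.1 against 65.7 CPM. One of them, Perp, is also a p53 target, and the other 9 summed to 90.2 against 56.8 CPM and 89.2 against 65.1 CPM. With a Cdkn1a UMI 1 ectoderm marker was at 0 in each mutant, and without it 0 were. The median mitochondrial share was 2.49% with and 3.09% without in mutant 1, and 2.36% and 2.06% in mutant 2. The part of these values in the folds was not tested.

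In surface ectoderm few members were called in the same split. Over the 3 libraries, 1 member was called higher, Cks1b, a small CDK subunit (log2 fold 0.36, SE 0.11, adjusted p = 0.0281), and 1 lower, Anln (-0.47, SE 0.16, adjusted p = 0.0396), against 4.07% and 4.05% of all genes. Cks1b stood at 226 and 297 CPM in the control, 185 and 238 CPM in mutant 1 and 192 and 209 CPM in mutant 2, without and with a UMI. Anln stood at 87.4 and 73.0 CPM, 85.2 and 75.8 CPM, and 103 and 40.2 CPM, so that mutant 2 gave most of its fold. DESeq2 called 0 members, and 0 were called without the library block. Psrc1 had a fold of 0.31 there (SE 0.23, adjusted p = 0.491) and Gtse1 -0.20 (SE 0.38).

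The difference of the split between mesenchyme and ectoderm of the mutants was tested directly, a comparison added after these values were seen. Of 54 members 3 had a higher and 2 a lower response in mesenchyme, against 5.69% and 1.14% of all genes. The difference on the log2 scale was 2.13 for Gtse1 (SE 0.44, edgeR adjusted p = 0.00026), 1.93 for Psrc1 (SE 0.28, adjusted p = 1.2e-07), 1.34 for Ckap2 (SE 0.26, adjusted p = 0.00012), -1.07 for Ube2c (SE 0.20, adjusted p = 6.8e-05) and -0.69 for Cks2 (SE 0.20, adjusted p = 0.0146). DESeq2 called Psrc1 and Ube2c of these, and with a prior of 4 degrees of freedom 0 were called.

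Within mesenchyme most members varied together from cell to cell. For each member, cells were ranked by the UMIs of the other 53 members, and the ratio of its level in the highest 25% of cells to that in the lowest 25% was taken, per library and with no test. The ratio was above 1 in every library for 48 of 54 members and at or above 2 in every library for 17. Its median was 2.03 in the control, 2.11 in mutant 1 and 1.73 in mutant 2. Ube2c had the highest ratios in each library, at 9.38, 8.09 and 6.47, followed by Aurka at 6.05, 6.19 and 6.30 and Nusap1 at 4.90, 5.87 and 5.66.

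Chromatin genes followed the others least. Their median ratio was 1.01, 1.40 and 1.27 over 13 genes, against 2.41, 2.58 and 2.08 over 15 spindle genes. Lbr, the lamin B receptor, was below 1 in every library, at 0.571, 0.720 and 0.834. Neither Mki67, at 1.01, 1.53 and 1.36, nor Hmgb2, at 1.38, 1.40 and 1.27, reached 2 in any library.

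Psrc1 and Gtse1 followed the other members less in the mutants than in the control. The ratio of Psrc1 was 2.66 in the control, 1.53 in mutant 1 and 1.45 in mutant 2, and that of Gtse1 2.605, 1.33 and 1.37. Among cells without a Cdkn1a UMI the ratios of Psrc1 were 2.57, 2.31 and 2.36 and those of Gtse1 2.63, 1.68 and 2.05, so the mutants lay nearer the control there. Both mutants lay below the control for 18 members and above it for 26. Gas2l3 was among the latter, at 1.31, 2.79 and 2.90. The control ratios rest on few UMIs in the highest and lowest 25% of cells, 19 and 15 for Gas2l3, 50 and 19 for Gtse1 and 83 and 32 for Psrc1. The counting error of these ratios was not estimated.

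**Figure D4:**
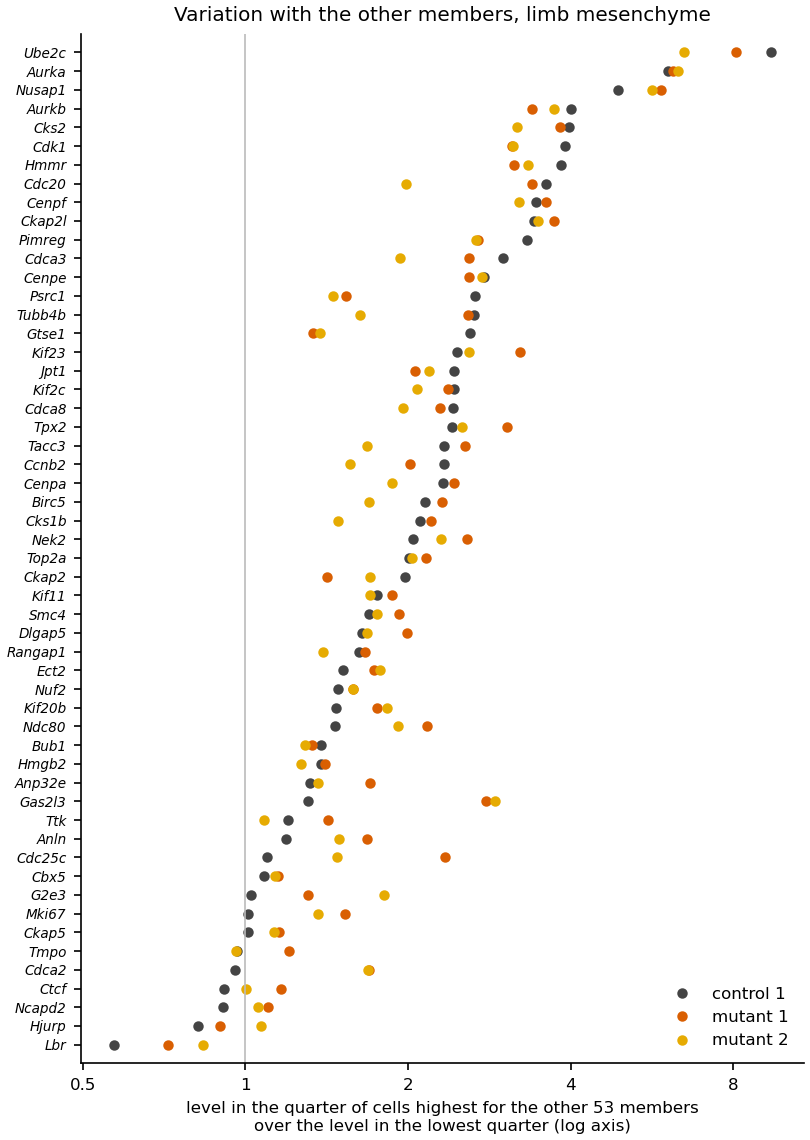
For each of the 54 genes (rows), the level in the 25% of mesenchyme cells highest for the other 53 over the level in the lowest 25% (x axis, log scale), per library; the grey line marks 1. Ube2c, Aurka and Nusap1 lie at 4.90 or above in all 3 libraries, and Psrc1 and Gtse1 lie lower in both mutants than in the control.

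Between classes, the members did not shift together. The fit used the sums of 4 classes in 3 libraries with each library as a block. Against surface ectoderm, mesenchyme had 17 of 54 members higher and 2 lower, beside 31.8% and 29.1% of all genes. The highest was Gtse1, at 12.98, 18.9 and 21.2 CPM in mesenchyme and 9.4, 9.3 and 10.1 CPM in ectoderm (log2 fold 0.85, SE 0.14), and the lowest Nusap1, at 41.2, 47.4 and 49.9 CPM against 69.5, 114 and 76.8 CPM (-0.90, SE 0.16). For both, the 3 libraries of a class did not overlap with those of the other. The fold of Gtse1 pools control and mutants, and in the control, at 12.98 against 9.4 CPM, its gap was smaller than in either mutant.

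Against endothelium, mesenchyme had 12 members higher and 20 lower, beside 32.0% and 32.5% of all genes. Psrc1 was highest, at 22.8, 40.6 and 43.5 CPM against 8.24, 10.7 and 12.95 CPM (1.73, SE 0.18), and in the control alone its fold was 1.47. Gas2l3 was lowest, at 7.37, 11.4 and 8.12 CPM against 26.1, 31.1 and 30.1 CPM (-1.71, SE 0.13). Kinetochore and passenger genes had 0 higher and 5 lower of 10, and the chromatin genes 5 higher and 3 lower of 13.

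Against primitive erythroid cells 12 members were higher and 27 lower, beside 42.2% and 39.3% of all genes. Pimreg was highest, at 46.7, 38.0 and 50.1 CPM against 2.9, 3.9 and 5.0 CPM (3.55, SE 0.15), and Tubb4b lowest, at 188, 153 and 199.5 CPM against 966, 885 and 950.4 CPM (-2.38, SE 0.12). Without TMM factors, which scale libraries to a common set of genes, the median over all genes moved to 1.31 and that of the members to 1.08, with 46 called higher and 5 lower. With TMM factors these medians were 0.04 and -0.19, so the members' median lay below that of all genes under both scalings. Against ectoderm the same change gave 8 higher and 9 lower, and against endothelium 16 and 13. The shares of all genes called without TMM factors are not given beside these counts, which therefore describe the scaling and no trait of the members.

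**Figure D5:**
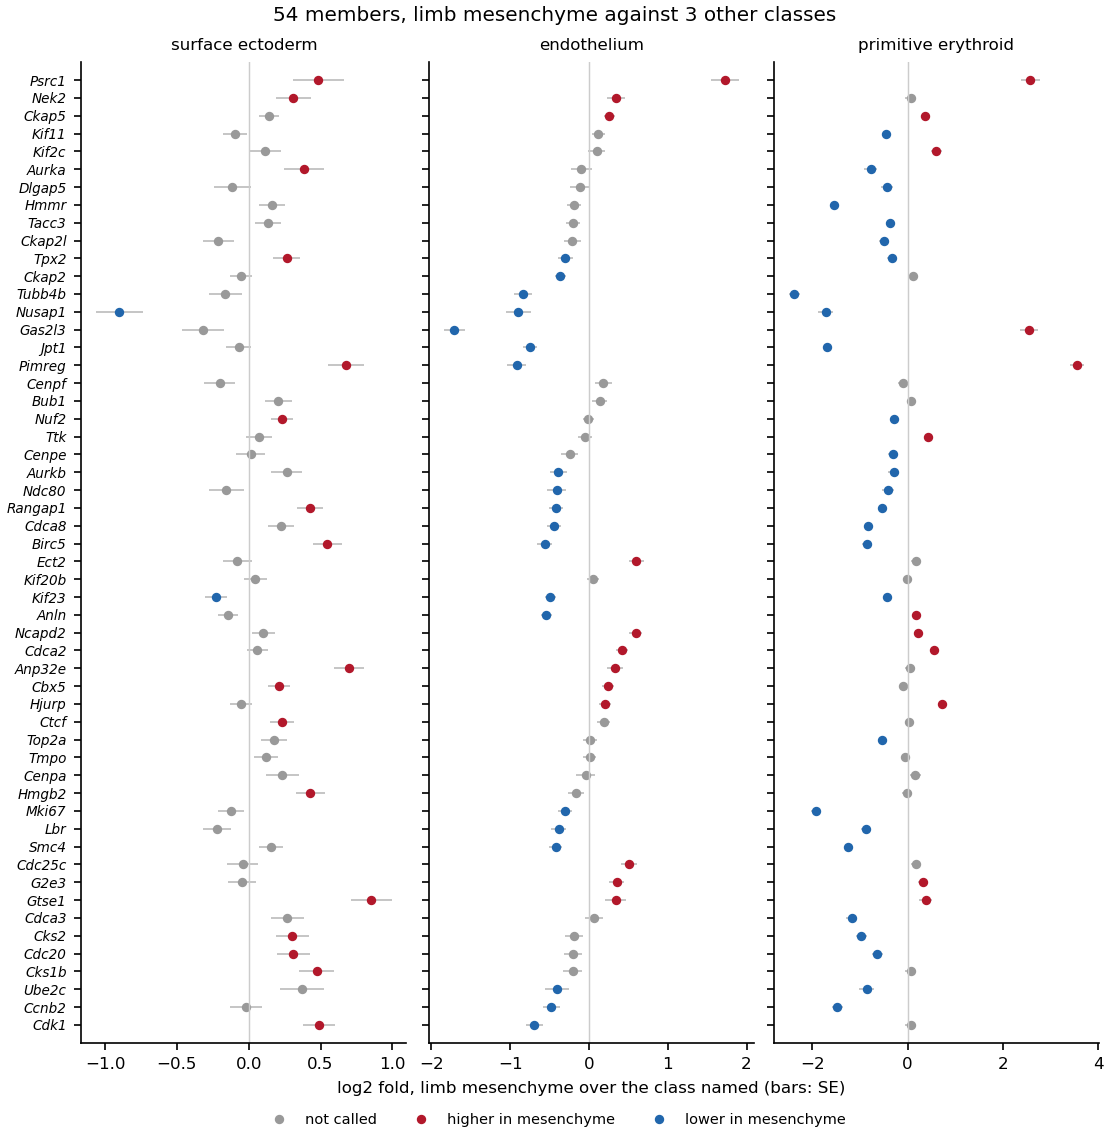
Log2 fold of mesenchyme over surface ectoderm, endothelium and primitive erythroid cells (x axes, each with its own range) for the 54 genes (rows, grouped by role); points are edgeR estimates, bars 1 SE, and colour marks calls at an adjusted p under 0.05. Psrc1 lies above 0 in all 3 panels, and Nusap1 below 0 in all 3.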

How the data were processed

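Single-cell RNA sequencing (Chromium 3′, version 3) of trypsin-released, frozen and thawed forelimb bud cells gave matrices of whole-number UMI counts, not normalised, which the authors deposited. Cell Ranger 7.0.0 is named per the file headers, and mm10 and Seurat 4.0.0 per the submitters' processing notes, with no step tied to Seurat. For intron handling and annotation the sources used here give nothing.

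Barcodes with at least 500 genes and under 10% mitochondrial UMIs were kept, and doublets called by Scrublet (scanpy 1.11.5, expected rate 0.06; 41, 96 and 122) were removed. Median depths were 23045, 36295 and 41449 UMIs. Cells of at least 10000 UMIs were thinned to 10000 and gated on 11 marker lists. The gate's limits were set after the distribution of marker counts was seen, and the members, gene lists and tests were chosen with earlier results of these data known. Flank lateral plate mesoderm held 15, 4 and 22 cells, under the minimum of 50, so its planned comparisons were not run and the class fit has 4 classes. The cells of a class with and without a Cdkn1a UMI come from the same library, which pairs them, and the library is their block.

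UMIs were summed per library and class (7652960 to 100126010 UMIs) and tested with edgeR 4.0.16 (quasi-likelihood, TMM factors, two-sided, R 4.3.3) where a gene's mean reached 5 CPM. Benjamini-Hochberg adjustment ran over all genes tested, at 0.05. CPM beside a genotype or class fold are scaled by the fit's factors, those beside a Cdkn1a fold by the UMIs of thinned cells, unless stated. DESeq2 1.42.0, other filters, scalings, depths, gates and left-out libraries were the alternatives. On simulated data for the genotype fit in mesenchyme, 96.88% of genes changed by 1 on the log2 scale were recovered. For the Cdkn1a fit 83.84% were, with 200 genes changed in each, 100 of them at this fold, of 10103 and 10422. The simulated spread was fixed beforehand and not estimated from these libraries, so these shares do not measure the power of the real fits. In the real genotype fit of mesenchyme the members' median SE was 0.337, and Psrc1, with a fold of 0.89, was not called. Named genes were 17 fixed representatives of the roles, called members, the 4 highest and 4 lowest folds in mesenchyme and the extremes of the class comparisons. Gene positions are from GENCODE on GRCm38, promoters from RefSeq GRCm38.p6. The values of single S phase genes are not reported here.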

Additional observations from a re-analysis of the deposited data

Results flagged for a closer look

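For 5 members the difference between cells with and without a Cdkn1a UMI was not the same in mesenchyme and ectoderm of the mutants, by a test of the difference itself with edgeR. On the log2 scale it was 2.13 for Gtse1, 1.93 for Psrc1, 1.34 for Ckap2, -1.07 for Ube2c and -0.69 for Cks2, mesenchyme less ectoderm. These are 3 of 54 members called higher and 2 called lower, against 5.69% and 1.14% of all genes. The comparison was added after the data were seen, and with a prior of 4 degrees of freedom none of the 5 passed, with adjusted p from 0.0765 to 0.285.

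The sum of the 54 genes moved opposite ways by class. Over all UMIs of a class, both mutants lay above the control in mesenchyme and in endothelium and below it in primitive erythroid cells, while in mesenchyme cells thinned to equal depth mutant 1 lay below the control. The mean log2 ratio in mesenchyme less that in erythroid cells was 0.19, and in endothelium less erythroid cells 0.26. At equal depth the ratios were 0.016 in mesenchyme, 0.146 in endothelium and -0.088 in erythroid cells, so the first gap was smaller there. These differences were not tested, and all 3 ratios share the lone control library.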

How the results depend on the processing

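No paired analysis was possible because the control has no replicate number and there is 1 of it, for the comparisons of mutant and control. For the split by Cdkn1a the library block was dropped instead, and without the block 0 members were called lower in mesenchyme, and in ectoderm 0 higher and 0 lower.

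In mutant mesenchyme, members called lower with Cdkn1a numbered 3 with DESeq2, 27 with full counts and 0 with a prior of 4 degrees of freedom. Between genotypes, 1 member (Psrc1) was called higher in mesenchyme under a 5% mitochondrial limit, and 2 lower in ectoderm without the filter on low counts. The log2 fold of Tmpo was -0.53 without mutant 1 and 0.0012 without mutant 2.

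For the ectoderm split, members called higher numbered 0 with DESeq2, without TMM factors, without the filter, with full counts, under the 5% limit and with the fixed prior, and 2 with at least 2 Cdkn1a UMIs or another seed. Called lower were 0 with DESeq2, without the filter, under the 5% limit and with the fixed prior, 4 without TMM factors, 2 with full counts or another seed, 6 thinned to 20000 UMIs and 10 with at least 2 UMIs. Leaving out 1 library gave 0 to 1 in either direction. The difference of the splits had 1 higher and 1 lower with DESeq2 and 0 and 0 with the fixed prior.

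Against ectoderm, mesenchyme had 8 members higher and 9 lower without TMM factors, 9 higher with the stricter gate, and 1 lower with a 1 CPM filter or none, while leaving out 1 library gave 7 to 15 higher and 1 to 5 lower. Against endothelium there were 13 lower without TMM factors, and 7 to 10 higher without 1 library. Against erythroid cells there were 46 higher and 5 lower without TMM factors. The member sum's log2 ratio in endothelium was 0.146 thinned, 0.130 with the stricter gate, 0.132 without cells with Cdkn1a and 0.183 without the 5 members with the most UMIs, and in erythroid cells -0.088 thinned. The cause of these changes was not tested. The counts of called members under other settings stand without the share of all genes called there, so they describe the setting only. In all, 192 alternative values of the main results stayed near the reported ones and 52 moved. Many of the 192 set 0 called members against 0, so this total says little about how stable the other counts are.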

Other observations

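Some cells met the markers of classes too small to compare. Myogenic progenitors, 19 in the control, 98 in mutant 1 and 253 in mutant 2, had mean sums of the 54 genes of 83.2, 94.1 and 91.8 UMIs per 10000. Macrophages, 20, 16 and 31 cells, had 55.1, 81.4 and 83.5. Flank lateral plate cells, 15, 4 and 22, had 84.6, 97.8 and 78.1. Kif15, a spindle motor outside the 54 genes, was at 172 CPM without and 256 CPM with a Cdkn1a UMI in mutant 1 and at 149 and 229 CPM in mutant 2, and Prc1, the midzone bundler, at 129 and 96.7 CPM and at 140 and 82.2 CPM. Both differences were called by edgeR, and Prc1 was chosen after its values were seen.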
